A study of Mus musculus with 11 samples.

Results

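The genes examined here encode the pore-forming alpha1 subunits of the voltage-gated calcium channels of the brain: Cacna1a, Cacna1b and Cacna1e of the Cav2 group, Cacna1c and Cacna1d of the Cav1 group, and Cacna1g, Cacna1h and Cacna1i of the Cav3 group. With earlier results of these data known, they were chosen by name and not by any measured value. They are the count entries whose Ensembl identifiers map to these symbols. They are 8 of 48709 genes counted in each sample, and all 8 were among the 17365 genes with enough counts to be tested. The samples were primary hippocampal neurons from embryonic day 17 embryos of CD1 mice, and polyA RNA was sequenced at day 12 in vitro. At day 10, cultures received lipid nanoparticles for 48 hours: 5 samples a mimic of miR-181a-5p (mimic) and 6 samples a negative control RNA (control), and per the study's methods both groups also received ApoE4. The study's methods pool the hippocampi of a litter, and nothing in the labels ties the samples of a group to separate preparations, so the p-values measure the spread between these samples, which may be technical. In such bulk RNA, fewer cells of a type and less RNA per cell cannot be told apart.

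Voltage-gated calcium channels open on depolarisation and let calcium into the cell, and the alpha1 subunit forms the pore and the voltage sensor, while beta, alpha2delta and, in some channels, gamma subunits set surface expression and gating. In hippocampal neurons, Cav2 channels sit at presynaptic terminals and trigger transmitter release, Cav1 (L-type) channels of the soma and dendrites couple activity to gene expression, and Cav3 (T-type) channels open near rest and shape burst firing. A microRNA lowers transcripts by pairing its seed, bases 2 to 8, with a matching stretch that lies mostly in a 3' UTR.

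The study asked what miR-181a-5p does to transcripts of cultured neurons, so the oligonucleotides delivered and the stretches of the calcium channel transcripts that can pair with the mimic are shown first. The mimic and negative control are printed as the study lists them, with the seed in capitals, and the mimic has the letters of the RefSeq mature mouse miRNA.
mimic miR-181a-5p: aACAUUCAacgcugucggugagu
negative control for mimic: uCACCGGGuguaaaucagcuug

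The 7-base match to the mimic seed is TGAATGT, or TGAATGTA where the base opposite position 1 of the miRNA is an A. Searched on the sense strand of the longest annotated 3' UTR, 3 of the 8 transcripts held it, 1 time each, and the other 5 did not. In these windows (GRCm38, all on the minus strand and printed 5' to 3' as the transcript reads), capitals mark the match.
Cacna1b: tctcttgagtgtTGAATGTAtacattct
Cacna1c: agtctgctcttgTGAATGTtcacgggg
Cacna1e: ccaactctcccaTGAATGTgatcagag

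The Cacna1b window, chr2:24604550-24604577, holds the only 8-base match, which begins 2005 bases past the stop codon of a 2683-base 3' UTR. The Cacna1c window, chr6:118591441-118591467, begins its match 2437 bases into 6652, and the Cacna1e window, chr1:154394029-154394055, 4350 bases into 7662. These 3 are the longest 3' UTRs of the family: those of Cacna1a, Cacna1g, Cacna1h, Cacna1d and Cacna1i have 538, 754, 1818, 2132 and 2620 bases. Of the 14489 tested genes with an annotated 3' UTR, 18.5% hold the 7-base match and 6% the 8-base match. The study's list of predicted miR-181a-5p targets, which covers 6.02% of tested genes, names Cacna1b and Cacna1d. Cacna1d has no 7-base match in its longest 3' UTR and no 6-base match either. In the coding sequence, Cacna1b, Cacna1c, Cacna1d, Cacna1e, Cacna1g and Cacna1h hold 1 match each and Cacna1a and Cacna1i hold none. Of 14556 tested genes with a coding sequence, 13% hold a match there. The members have 6537 to 7143 coding bases, against a median of 1431 for tested genes, so this compares unlike lengths. A match is a string of letters and does not show that the site is used.

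Library totals ran from 17287168 to 48091231 counts, so that 3 counts correspond to 0.0631 to 0.175 CPM (counts per 1000000, with library sizes scaled by TMM factors), and the 8 genes took 21335 to 58664 counts per sample. The lowest count of any of them was 478 (Cacna1i) and the highest was 14422 (Cacna1b), far above the limit of detection. Across all tested genes 2.85% were called by edgeR at an adjusted p under 0.05, 1.77% lower and 1.08% higher in mimic, and the marker lists are read beside these shares. Neuronal markers were abundant (summed level of 8 markers, 7752 to 7926 CPM in control and 7685 to 7840 CPM in mimic), with 5 of 8 lower and none called. Glutamatergic neuron markers summed to 3508 to 3657 CPM in control and 3249 to 3491 CPM in mimic, which did not meet, and 6 of 7 were lower: Slc17a7 (log2 fold change -0.14), Camk2a (-0.091) and Prox1 (-0.21) were called lower and Slc17a6 (0.28) was called higher. GABAergic neuron markers summed to 487 to 529 and 479 to 510 CPM, with 5 of 9 lower and none called. Astrocyte markers summed to 4855 to 5299 CPM in control and 4454 to 4770 CPM in mimic, which did not meet, with 6 of 8 lower and 1 called, Slc1a2 (-0.19, adjusted p = 9.95e-05). Oligodendrocyte lineage markers summed to 315 to 381 and 288 to 331 CPM, with 6 of 8 lower and none called. Fibroblast and vascular markers summed to 264 to 399 CPM in control and 408 to 542 CPM in mimic, with 8 of 10 tested markers higher. Of these, 1 was called in each direction, Cdh5 (0.77) higher and Rgs5 (-0.66) lower. Cldn5 was not tested, with at most 1 count in any sample. Dividing cell markers summed to 80.7 to 88.6 and 96.0 to 104 CPM, with 9 of 9 higher and 3 called. Microglial markers reached at most 14.8 CPM in sum, with 4 of 7 tested lower and none called. The part of these cell types in the values below was not tested.

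None of the 8 alpha1 subunit genes changed between mimic and control past the threshold (edgeR quasi-likelihood test, adjusted p under 0.05 over all tested genes). Beside this stands the 2.85% of all tested genes that were called. The estimates were small: 6 of the 8 genes were lower and 2 higher in mimic, from 6.15% lower for Cacna1e to 4.73% higher for Cacna1g. The median log2 fold change of the 8 was -0.057, beside -0.00015 for all tested genes. An unadjusted p under 0.05 was found for Cacna1a, Cacna1b, Cacna1c and Cacna1e, against 15.7% of all tested genes. For no gene of the family did the mimic and control ranges separate, which happened for 2.89% of tested genes. The call for Cacna1e depended on the setting, since DESeq2 called it (log2 fold change -0.090, adjusted p = 0.0408).

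Among the Cav2 genes, which supply the channels of the presynaptic terminal, all 3 estimates were below 0. Cacna1a (ENSMUSG00000034656, chr8:84388440-84640246 of GRCm38, as for all genes here, plus strand) encodes the pore of P/Q-type channels, which drive release at most central synapses. Its level was 137 CPM at the lowest, 147 at the median and 155 at the highest over the 6 control samples, and 148, 137, 138, 147 and 128 CPM in mimic samples 1 to 5. Mimic samples 2 and 5 lay below the whole control range and the other 3 inside it. The log2 fold change was -0.077 (SE 0.035, 95% interval -0.15 to -0.0044, edgeR adjusted p = 0.281), and an exact permutation test over the 462 ways to split the samples, two-sided, gave p = 0.119 (the smallest it can give is 0.00433). A non-coding antisense gene, Gm16183, covers 3.81% of the Cacna1a exon bases and stood at 0.546 CPM ± 0.121 (SD, n = 6) in control. The library kit was taken as one that does not mark strand.

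Cacna1b (ENSMUSG00000004113, chr2:24603887-24763152, minus strand) encodes the pore of N-type channels, the other main trigger of fast release, and carries the 8-base match shown above. Its control samples had a lowest level of 285, a median of 303 and a highest of 314 CPM, and the mimic samples had 301, 282, 287, 292 and 283 CPM. All 5 mimic samples were below the control median, but only samples 2 and 5 were below every control sample. The log2 fold change was -0.062 (SE 0.027, 95% interval -0.12 to -0.0060, edgeR adjusted p = 0.257, exact permutation p = 0.0606). Every estimate of Cacna1b was below 0 under the alternatives tried, and none passed the threshold.

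Cacna1e (ENSMUSG00000004110, chr1:154390731-154884501, minus strand) encodes the pore of R-type channels, found in spines and terminals. It had the lowest p of the family. Control samples ran from 234 through a median of 246 to 253 CPM, and mimic samples had 241, 223, 222, 238 and 228 CPM. Mimic samples 2, 3 and 5 were below all control samples, and samples 1 and 4 were above only the lowest control sample. Its log2 fold change was -0.092 (SE 0.027, 95% interval -0.15 to -0.036, edgeR adjusted p = 0.0607, exact permutation p = 0.013). The gene passed the threshold in edgeR without the count filter (log2 fold change -0.096, adjusted p = 0.0303), without control sample 2 (-0.098, adjusted p = 0.042) and without mimic sample 1 (-0.11, adjusted p = 0.0345), and not without any of the other 9 samples, where the adjusted p reached 0.194.

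**Figure D1:**
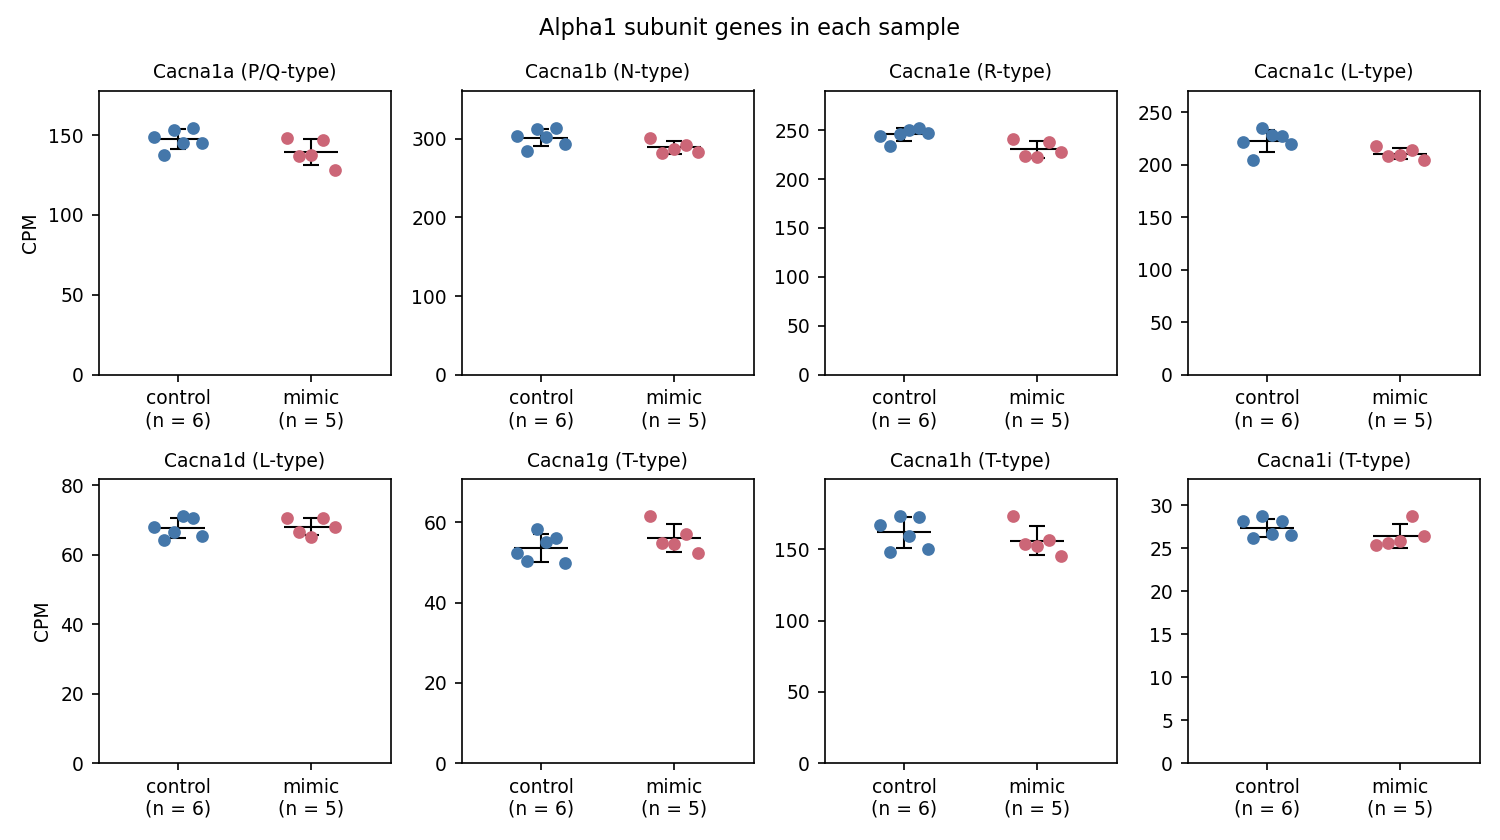
Level of each alpha1 subunit gene in CPM (vertical axis, from 0) in the 6 control and 5 mimic samples; each point is 1 sample, the horizontal bar is the group mean and the whiskers are 1 SD. The groups overlap in all 8 panels, with the mimic mean of Cacna1e at 230.5 CPM and the control mean at 246 CPM.

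The L-type genes had different estimates, neither past the threshold. Cacna1c (ENSMUSG00000051331, chr6:118587240-119196418, minus strand) encodes Cav1.2, the main L-type pore of the hippocampus. Its control samples ran from 205 through a median of 225 to 236 CPM, and its mimic samples had 218, 209, 209, 214 and 204 CPM. All 5 mimic samples were under the control median, and 1, sample 5, was under the lowest control sample by less than 1 CPM. On the log2 scale the fold change was -0.081 (SE 0.030, 95% interval -0.14 to -0.020, edgeR adjusted p = 0.155, exact permutation p = 0.0541). Without control sample 2, the lowest of its group, the gene passed the threshold (log2 fold change -0.098, adjusted p = 0.0376).

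Cacna1d (ENSMUSG00000015968, chr14:30039939-30491455, minus strand) encodes Cav1.3, an L-type pore that opens at more negative voltages than Cav1.2. Control samples ran from 64.4 through a median of 67.3 to 71.2 CPM, and mimic samples had 70.6, 66.7, 65.1, 70.5 and 67.9 CPM, all inside the control range. Its log2 fold change was 0.0095 (SE 0.033, 95% interval -0.058 to 0.077, edgeR adjusted p = 0.938, exact permutation p = 0.779). Its sign turned when mimic sample 1 was left out (-0.0019, adjusted p = 0.991), so no direction can be given for this predicted target. The protein-coding gene Chdh, on the opposite strand, covers 4.67% of its exon bases and had 0.50 CPM ± 0.170 (SD, n = 6) in control.

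Of the T-type genes, Cacna1g and Cacna1h had the widest relative spread between samples of the family. Cacna1g (ENSMUSG00000020866, chr11:94408391-94474198, minus strand) encodes Cav3.1, a low-threshold channel known for burst firing of thalamic neurons. It was the member with the highest estimate in mimic: control samples ran from 49.8 through a median of 53.6 to 58.4 CPM, and mimic samples had 61.5, 55.0, 54.7, 57.0 and 52.4 CPM. Only mimic sample 1 exceeded the control range. The log2 fold change was 0.067 (SE 0.043, 95% interval -0.022 to 0.16, edgeR adjusted p = 0.508, exact permutation p = 0.271).

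Cacna1h (ENSMUSG00000024112, chr17:25374285-25433783, minus strand) encodes Cav3.2, the T-type pore studied most in sensory neurons. Control samples ran from 148 through a median of 163 to 173 CPM, and mimic samples had 173, 153, 152, 156 and 145 CPM. Sample 5 alone lay below the control range, and the log2 fold change was -0.052 (SE 0.050, 95% interval -0.16 to 0.056, edgeR adjusted p = 0.719, exact permutation p = 0.39). Its coefficient of variation, 6.85% in control and 6.6% in mimic, was the highest of the 8 genes in either group, and 1.62% of its exon bases are shared with Tpsg1, a gene of the opposite strand at 0.101 CPM ± 0.0587 (SD, n = 6) in control.

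Cacna1i (ENSMUSG00000022416, chr15:80287238-80398279, plus strand) encodes Cav3.3, the slowest of the T-type channels. Control samples ran from 26.2 through a median of 27.4 to 28.7 CPM, and mimic samples had 25.4, 25.6, 25.9, 28.8 and 26.4 CPM. The mimic samples fell on both sides of the control range, 3 below it and 1 just above it. Its log2 fold change was -0.052 (SE 0.043, 95% interval -0.14 to 0.036, edgeR adjusted p = 0.640, exact permutation p = 0.197).

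**Figure D2:**
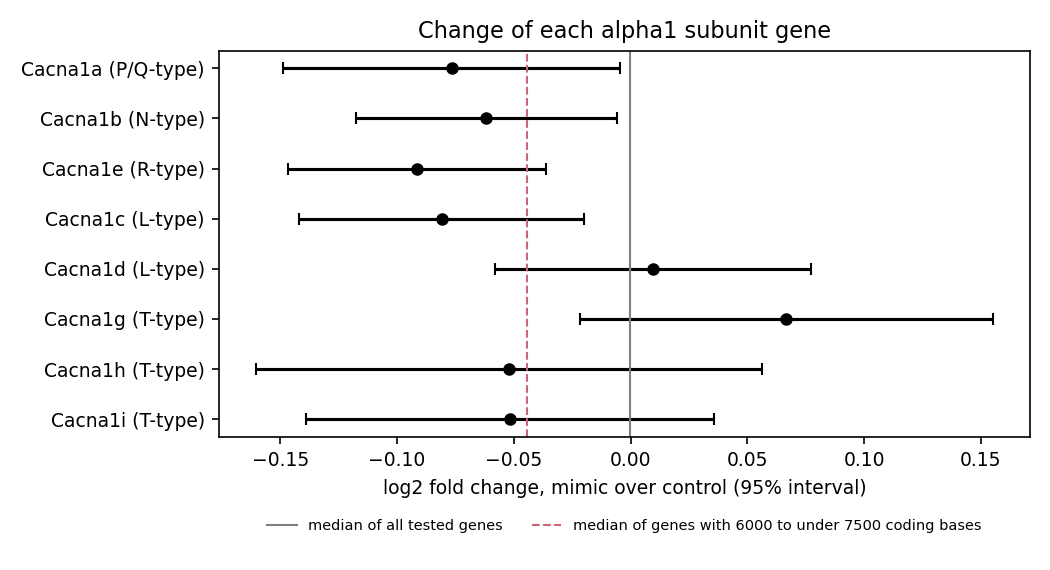
Log2 fold change of mimic over control (horizontal axis) for each alpha1 subunit gene, with its 95% interval from edgeR; the grey line is the median of all tested genes (-0.00015) and the dashed line the median of other genes with 6000 to under 7500 coding bases (-0.044). The intervals of Cacna1a, Cacna1b, Cacna1e and Cacna1c lie below 0 before adjustment, and those of the other 4 genes span 0.

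The genes with a 7-base match in the 3' UTR and those without one were not cleanly divided. Cacna1b, Cacna1c and Cacna1e, with a match, had log2 fold changes of -0.062, -0.081 and -0.092. Cacna1a, without one in either its 3' UTR or its coding sequence, had -0.077, and the other 4 ranged from -0.052 to 0.067. Cacna1b, with the longest match, had the smallest estimate of the 3. Over all tested genes, the median log2 fold change was -0.024 for the 2676 genes with a 7-base match. It was -0.037 for the 870 with an 8-base match and 0.0055 for the 11813 without. Of these groups, 4.48%, 6.09% and 1.47% were called lower. Their median 3' UTR lengths were 2480.5, 2683.5 and 989 bases, and the part of length in these differences was not tested.

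Levels of different genes were compared as CPM per kilobase of merged exons, in control. Cacna1b was the highest at 30.3 ± 1.13 CPM per kilobase (SD, n = 6), above 91.4% of tested genes, and made up 32.4% ± 0.175 of the sum over the 8 genes. Cacna1h followed at 16.6 ± 1.13, Cacna1a at 12.9 ± 0.550, Cacna1c at 10.5 ± 0.501 and Cacna1e at 9.74 ± 0.250 CPM per kilobase. The lowest levels were those of Cacna1d at 5.37 ± 0.220, Cacna1g at 5.29 ± 0.340 and Cacna1i at 2.78 ± 0.108 CPM per kilobase, the last still above 45.9% of tested genes. The N-type gene was thus 1.83 times the next member, and the control ranges of neighbours in this order overlapped only for Cacna1c and Cacna1e and for Cacna1d and Cacna1g. Cacna1c was above Cacna1e in 11 of 11 samples, whereas Cacna1d was above Cacna1g in 6 of 11, which gives that pair no order.

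The order depended on the length used. Merged exons count every annotated exon, and these amount to 25228 bases for Cacna1e and 21191 for Cacna1c but 9763 to 12621 for the other 6, while the coding lengths lie between 6537 and 7143 bases. Per kilobase of coding length, Cacna1b again came first at 43.2 ± 1.61 CPM (SD, n = 6), but Cacna1e (36.0 ± 0.924) and Cacna1c (33.5 ± 1.59) moved above Cacna1h (22.9 ± 1.57) and Cacna1a (20.7 ± 0.883). Cacna1d, Cacna1g and Cacna1i stayed lowest on this scale, at 10.4 ± 0.424, 7.51 ± 0.482 and 4.15 ± 0.161 CPM per kilobase. The places of Cacna1b at the top and of Cacna1i at the bottom therefore held on both scales, and the ranks between them did not all hold.

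**Figure D3:**
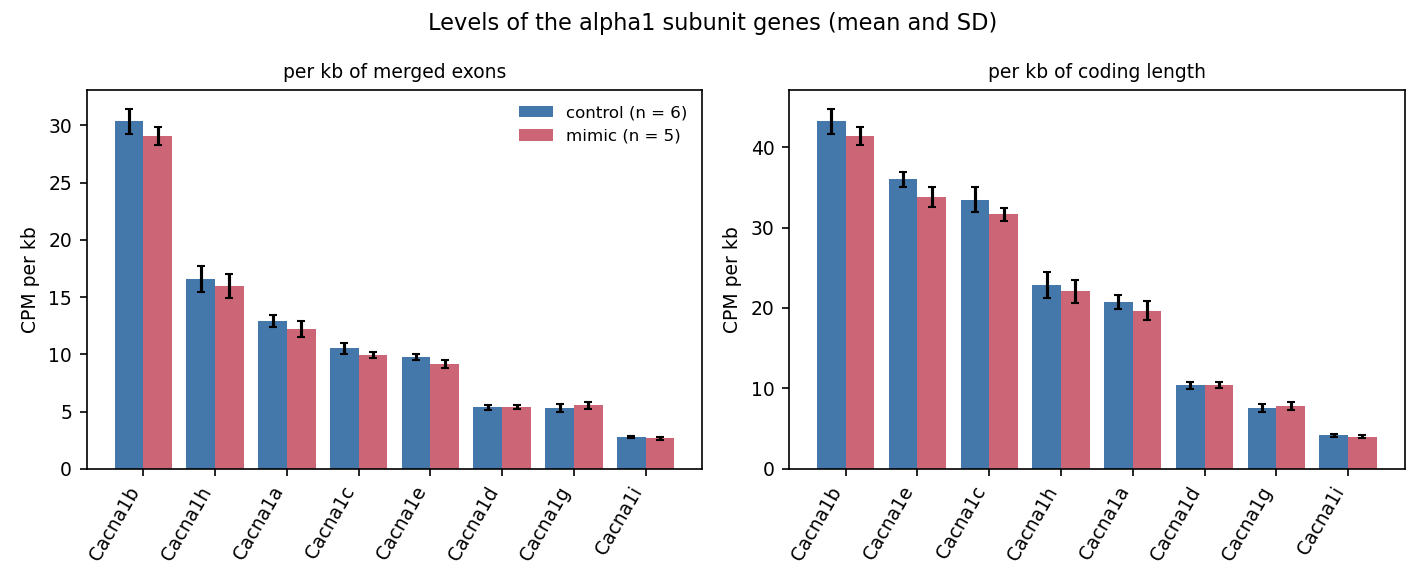
Mean level of each alpha1 subunit gene in CPM per kilobase (vertical axes, from 0) in control (n = 6) and mimic (n = 5), with 1 SD, divided by merged exon length on the left and by coding length on the right, each ordered by the control mean. Cacna1b is first and Cacna1i last in both panels, and Cacna1e and Cacna1c rank higher by coding length.

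The make-up of the family was close in both groups. Per kilobase of merged exons, Cav2 genes made up 56.7% ± 0.508 (SD, n = 6) of the sum in control and 56.1% ± 0.333 (n = 5) in mimic, Cav3 genes 26.3% ± 0.637 and 26.9% ± 0.538, and Cav1 genes 17% ± 0.297 and 17.1% ± 0.246. The ranges of the groups overlapped for all 3 classes. Of the single genes, Cacna1g took 5.43 to 5.92% of the sum in control and 5.97 to 6.39% in mimic, the only share whose ranges did not meet, picked out after the 8 shares were seen and not tested. The sum itself was 87.5 to 97.6 CPM per kilobase in control and 86.5 to 95.1 in mimic. The order of Cav3 above Cav1 depended on the length used. By coding length, control shares were 18.76% for Cacna1c and 5.813% for Cacna1d of Cav1. They were 4.212%, 12.81% and 2.331% for Cacna1g, Cacna1h and Cacna1i of Cav3, which together stood below Cav1.

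At least 7 of the 8 genes deviated to the same side of their group mean in 9 of the 11 samples. In control sample 2 and in mimic samples 2 and 3 all 8 were below their group mean, and in control sample 5 and mimic sample 4 all 8 were above it. Control samples 3 and 6 and mimic samples 1 and 5 had 1 gene on the other side, and control samples 1 and 4 were split, 5 above and 3 below. Pearson's r of log2 CPM over the 11 samples, with group means removed, was highest for Cacna1b and Cacna1h (0.935) and lowest for Cacna1g and Cacna1i (0.319), and that of Cacna1i with any other member was at most 0.5, as a description of samples that share library and scaling. The median deviation of the 8 genes on the log2 scale ran from -0.086 in control sample 2 to 0.063 in mimic sample 1. In control sample 2 the 135 other genes of like coding length (6000 to under 7500 bases, at least 20 CPM) were low as well, with a median deviation of -0.057 and 86.7% of them below the group mean. In mimic sample 1 they stood at 0.012 where the members were at 0.063, and in control sample 6 at -0.0063 where the members were at -0.042. Control sample 2 also had the highest share of mitochondrial counts (3.48%), beside 3.03 to 3.46% in the other 10. Mimic samples 5 (3.46%) and 1 (3.39%) came next, and the members' median deviations there were -0.036 and 0.063. The part of library quality in these deviations was not tested.

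**Figure D4:**
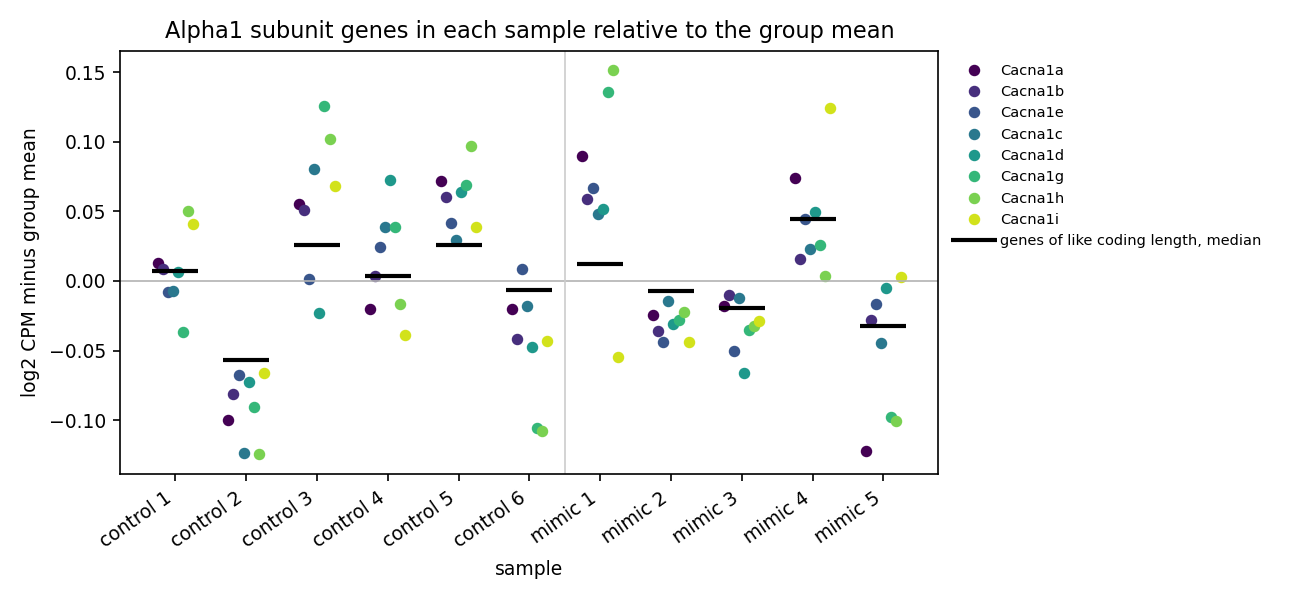
Deviation of each alpha1 subunit gene from its group mean (vertical axis, log2 CPM) in each of the 11 samples; coloured points are genes, and the black bar is the median of 135 other genes with 6000 to under 7500 coding bases. All 8 genes lie below 0 in control sample 2, where the bar is at -0.057, and above 0 in mimic sample 4, where it is at 0.044.

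The alpha1 subunit genes share a long coding sequence (6537 to 7143 bases, against a median of 1431 for tested genes), and fold changes of all genes varied with that length. In bins chosen after the values were seen and over genes of at least 20 CPM, the members left out, the median log2 fold change was 0.0093 for 1994 genes under 1000 coding bases and -0.0045 for 2784 genes of 1000 to under 2000. It was -0.039 for 184 genes of 5000 to under 6000, -0.044 for 135 genes of 6000 to under 7500 and -0.066 for 153 longer genes. The share of genes with a negative estimate went from 42.9% in the first bin to 77.8% in the bin of the calcium channels, where 10.4% were called, each of them lower in mimic. Beside that bin, the 8 members had a median of -0.057 and 6 of 8 negative. With scaling factors set on those 135 genes, an alternative chosen after seeing the data, the members' log2 fold changes were -0.033 for Cacna1a, -0.018 for Cacna1b, -0.037 for Cacna1c, 0.053 for Cacna1d, -0.048 for Cacna1e, 0.11 for Cacna1g, -0.0077 for Cacna1h and -0.0085 for Cacna1i, and none was called. This scaling raises every gene by about the same amount and puts the median of all genes at 0.043, so negative estimates had to come nearer 0.

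**Figure D5:**
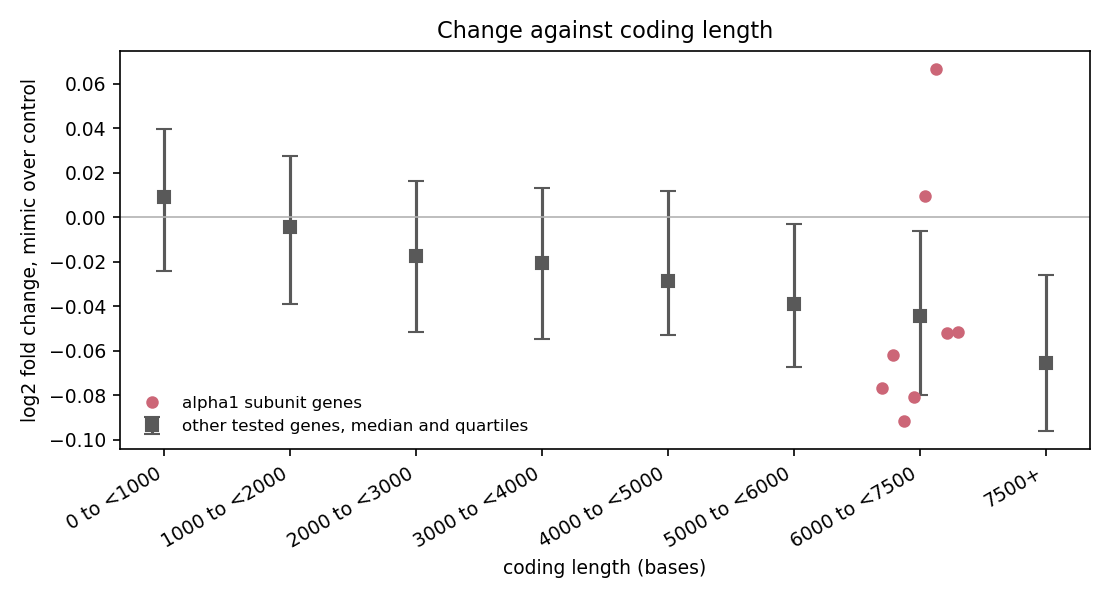
Log2 fold change of mimic over control (vertical axis) against coding length in bases (horizontal axis, bins); squares are the medians of other tested genes of at least 20 CPM, with whiskers at the quartiles, and circles are the 8 alpha1 subunit genes in their bin, spread sideways for clarity. The medians go from 0.0093 in the first bin to -0.066 in the last, and 6 of the 8 circles are below 0.

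The genes that accompany the pore were then examined on fixed lists. The remaining genes of the alpha1 family were Cacna1f and Cacna1s, pores of retina and skeletal muscle, at 0.561 ± 0.125 and 0.242 ± 0.0683 CPM (SD, n = 6) in control, and Nalcn, the sodium leak channel, at 150 ± 3.93 CPM with a log2 fold change of -0.036 (edgeR adjusted p = 0.573). Cacna1f had 0.086 (adjusted p = 0.911). None of the 3 was called.

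None of the auxiliary subunit genes was called. All 4 beta subunit genes, whose products bring the pore to the membrane, had negative estimates with a median log2 fold change of -0.050, and those with the highest CPM, Cacnb3 and Cacnb1, had -0.020 (edgeR adjusted p = 0.846) and -0.044 (adjusted p = 0.592). Of the 4 alpha2delta genes, whose products are extracellular subunits, 2 were lower, with a median of -0.021. The most abundant, Cacna2d1 and Cacna2d3, went in opposite directions: Cacna2d1, a predicted target with a 7-base match in its 3' UTR, had -0.091 (SE 0.031, adjusted p = 0.125) and Cacna2d3 had 0.081 (SE 0.027, adjusted p = 0.105). Of the gamma subunit family, whose members in brain mainly serve as AMPA receptor partners, 7 of 8 genes were tested and 5 were lower, with a median of -0.016. Its leading genes Cacng7 and Cacng4 had 0.066 (adjusted p = 0.550) and 0.035 (adjusted p = 0.796).

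Of 17 active zone genes, which hold Cav2 channels beside docked vesicles, 14 had negative estimates, with a median log2 fold change of -0.047, and 1 was called, against 1.77% of tested genes called lower. This was Pclo, which encodes the scaffold Piccolo. It fell from 319 ± 11.2 CPM (SD, n = 6) in control to 285 ± 9.53 (n = 5) in mimic, with ranges of 297 to 326 and 273 to 296 that did not meet (log2 fold change -0.16, SE 0.028, edgeR adjusted p = 0.0016). Pclo has no 7-base match in its longest 3' UTR. The 1.77% is over genes of all lengths. Among genes of at least 20 CPM, the share called lower was 1.35% under 1000 coding bases and 18.3% at 7500 or more. The active zone list was not compared with genes of like length. Snap25 and Syt1, the most abundant of the list, had -0.066 (adjusted p = 0.287) and -0.047 (adjusted p = 0.288).

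Of 16 partners of L-type channels and genes of the calcium response, 8 were lower and 1 was called lower, against 1.77% of tested genes, with a median log2 fold change of -0.011. The called gene was Camk2a, which encodes the alpha chain of a calcium-dependent kinase of excitatory synapses, at 1999 ± 32.6 CPM (SD, n = 6) in control and 1876 ± 69.1 (n = 5) in mimic (log2 fold change -0.091, SE 0.024, edgeR adjusted p = 0.0305). Its call was lost with upper-quartile scaling (adjusted p = 0.0541) and without any one of 7 samples: control 1 (adjusted p = 0.0914), 3 (0.0515), 4 (0.0699) or 5 (0.0524), or mimic 2 (0.122), 4 (0.0817) or 5 (0.0619).

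The genes most like each member were ranked by Pearson's r of log2 CPM over the 11 samples with group means removed, among 11176 genes of at least 5 CPM. They were Trak1 (0.972) and Fmnl1 (0.966) for Cacna1a, Trrap (0.983) and Crtc1 (0.969) for Cacna1b, Nav2 (0.968) and Usp10 (0.95) for Cacna1c, and Tanc2 (0.941) and Slc8a1 (0.941) for Cacna1e. For Cacna1d they were Spag6l (0.93) and Dpysl2 (0.913), for Cacna1g Sez6l (0.973) and Pacs2 (0.964), for Cacna1h Zmiz2 (0.98) and Cacng8 (0.973), and for Cacna1i Tspan9 (0.908) and Trerf1 (0.895). Each r is among the highest of 11176 and describes these 11 libraries.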

How the data were processed

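Raw counts per gene were deposited by the authors, 1 file per sample. Per the study's methods and the submitters' processing notes, 50-base single reads were checked with FastQC 0.11.5, aligned to mm10 with STAR 2.5.2b and counted with featureCounts of Subread 1.5.1; the handling of multimapped reads and the annotation release are not given in the sources used here. The TruSeq kit was taken as one that does not mark strand, which was not tested. The deposited table of normalized values (signal) is these counts divided by 1 factor per sample and was used as an alternative.

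Genes for which 50% or more of the samples had 5 or more counts were tested with edgeR 4.0.16 (glmQLFit robust, glmQLFTest, TMM, Benjamini-Hochberg) in R 4.3.3 over all 11 samples. DESeq2 1.42.0, the study's tool, other scalings and filters, limma 3.58.1 on log2(normalized value + 1), a replicate block and leaving out each sample were alternatives. Standard errors are the log2 fold change over √F, and log2 CPM values add 0.5 to each count. In data simulated on 17365 genes with 200 changed, 56.5%, 74% and 87% were recovered at folds of 1.2, 1.5 and 2, and 7.38%, 7.5% and 4.4% of calls were false. Coordinates, exons, coding sequences and 3' UTRs were taken from GENCODE's annotation of GRCm38. The 95% intervals are those of the edgeR fit and include the spread between samples. The library totals give the depth.

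Members and lists were chosen with earlier results of these data known. Named were the 8 members, each called gene and the 2 genes of highest mean CPM on each channel list, and the 2 genes most like each member. The values of 1 gene that this rule names are not reported here. The level of miR-181a-5p was not analysed here.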

Additional observations from a re-analysis of the deposited data

How the results depend on the processing

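No alpha1 subunit gene was called by edgeR, and this count was 0 with RLE and upper-quartile scaling, filterByExpr, the normalized table with limma, the replicate block, its unblocked counterpart and the scaling on like-length genes. It was 1, Cacna1e and lower in mimic, with DESeq2 (-0.08956, adjusted p = 0.0408) and without a count filter (-0.09623, adjusted p = 0.0303). Leaving out 1 sample gave 0 to 2 called, all lower in mimic, with log2 fold changes of -0.098 to -0.065 for Cacna1c, -0.00194 to 0.0302 for Cacna1d, which reversed to -0.001939 without mimic sample 1, and -0.1073 to -0.0742 for Cacna1e. The other 5 genes kept their direction and stayed uncalled under each alternative. Over all genes 495 were called (307 lower, 188 higher, 62% lower), 564 by DESeq2 (61.5% lower), 785 (485 lower, 300 higher) without a filter and 460 (49.1% lower) with upper-quartile scaling. Scaling on like-length genes, chosen after seeing the data, gave 596 (79 lower, 517 higher, 13.3% lower) and moved the median of all genes to 0.043. Leaving out 1 sample gave 218 (without control 1) to 491 calls, 141 (without mimic 2) to 295 lower and 68 to 229 higher, with 237 without mimic 2 and 278 without mimic 4; lower calls were 150, 199, 202 and 175 without control 1, 4 or 6 or mimic 4, and higher calls 96 and 103 without mimic 2 or 4. Partner genes called numbered 2, 1 with upper-quartile scaling, 6 lower without a filter, 3 (1 lower, 2 higher) with like-length scaling, and 1 to 5 (1 to 5 lower, 0 to 1 higher) when 1 sample was left out, with 1 without control 1, 3, 4 or 5 or mimic 2 or 4, 5 without control 2 and 4 without mimic 5. Camk2a weakened to -0.08128 with upper-quartile and -0.04745 (adjusted p = 0.316) with like-length scaling, which raises every gene by about the same amount and was set on genes of the length of the alpha1 subunits, not of Camk2a. Shares of the family by coding length were 11.63% for Cacna1a, 24.22% for Cacna1b, 18.76% for Cacna1c and 5.813% for Cacna1d. They were 20.22% for Cacna1e, 4.212% for Cacna1g, 12.81% for Cacna1h and 2.331% for Cacna1i. The count of members with a 7-base match was 3 also over all annotated 3' UTRs.

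The samples share replicate numbers 1 to 5. The deviations of same-numbered samples correlated between -0.185 and 0.15 (5 pairs), beside -0.318 to 0.306 for 25 other pairs. No pairing by number was seen, but 5 pairs are too few to decide whether one exists. The replicate block called 328 genes (154 lower, 47% lower), against 350 (202 lower) without the block on the same samples, a comparison added after seeing the data, and no alpha1 subunit gene. Apart from the scaling noted, the cause of these differences was not tested. No 2 replicates agreed within counting noise (smallest chi-square per degree of freedom 1.23).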

Other observations

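Calcium that enters through the channels opens calcium-activated potassium channels, which repolarise the cell. None of 6 such genes was called, and 4 had negative estimates, with a median log2 fold change of -0.038 beside -0.00015 for all tested genes. Kcnma1, which encodes the BK channel pore and is a predicted target with a 7-base match in its 3' UTR, had 159 ± 6.89 CPM (SD, n = 6) in control and 150 ± 5.18 (n = 5) in mimic (log2 fold change -0.087, SE 0.031, edgeR adjusted p = 0.133). Kcnn2, which encodes an SK channel, had 61.8 ± 2.71 and 58.2 ± 3.66 CPM (log2 fold change -0.089, SE 0.038, adjusted p = 0.240).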
